A study of Mus musculus with 9 samples.

Results

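The macrophage genes of the embryonic kidney were followed as a group of 10 genes, chosen by name from the 24138 loci of the expression table: the growth factor *Csf1* and its receptor *Csf1r*, the chemokine receptor *Cx3cr1*, the complement genes *C1qa*, *C1qb* and *C1qc*, the adaptor *Tyrobp*, and the surface and lysosomal markers *Mrc1*, *Cd68* and *Lyve1*. All 10 were found as loci of their own, with no other gene name joined to them. RNA-seq had been performed on whole E15.5 mouse kidneys from 3 crosses, with 3 kidneys and 3 libraries of each genotype. *Foxd1GC/+;Ntn1fl/fl* kidneys (MUT) carry a *Foxd1* allele that encodes GFP-Cre and 2 floxed alleles of *Ntn1*, which encodes the secreted guidance cue netrin 1. *Foxd1GC/+;Ntn1fl/+* kidneys (HET) carry the same Cre allele and 1 floxed *Ntn1* allele, and *Ntn1fl/fl* kidneys (WT) carry 2 floxed alleles and no Cre. The Cre is made in Foxd1+ stromal progenitors and their descendants, and HET and MUT kidneys, unlike WT kidneys, also have the Cre in place of 1 *Foxd1* allele. A difference between either of them and WT therefore cannot be told apart from an effect of the Cre allele. The comparisons ask whether stromal loss of *Ntn1* was accompanied by a difference in macrophage transcripts.

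Macrophages enter the kidney early in development, from yolk sac and fetal liver sources, and live in the stroma between nephrons and vessels, where they clear dying cells and associate with growing vessels. They depend on signals through CSF1R, a receptor tyrosine kinase that binds CSF1, made largely by stromal and epithelial cells, and IL34. C1qa, C1qb and C1qc are the chains of C1q, the recognition unit of the classical complement pathway, and in tissues they are made mainly by macrophages. TYROBP, also called DAP12, is a membrane adaptor that carries signals for receptors such as TREM2, while MRC1 (CD206) takes up glycoproteins, CD68 marks lysosomes, and LYVE1 binds hyaluronan and is found on a subset of macrophages next to vessels and on lymphatic endothelium.

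The 3 C1q genes lie side by side on the minus strand of chromosome 4. In GENCODE release M21 on GRCm38, *C1qb* spans 136880129 to 136886187, *C1qc* 136889804 to 136893065 and *C1qa* 136895917 to 136898803, each with up to 3 exons and all within 18675 bases, and the expression table has no other C1q gene in that span. The bases before the start of a gene were read as a description, and their bearing on how the genes varied across libraries was not tested. RefSeq promoters (GRCm38.p6) matched 6 of the 10 genes, *Mrc1*, *Csf1*, *C1qb*, *C1qc*, *Cx3cr1* and *Cd68*. The letters GAGGAA, the core bound by the macrophage factor PU.1, were looked for on both strands of the 250 bases before the RefSeq start. They were present in 4 of the 6 (*Mrc1*, *C1qb*, *C1qc* and *Cd68*) and in 23.3% of all 32851 promoters. The longer form AGAGGAAG, which contains it, was in 1 of the 6 (*Mrc1*) and 3.67% of all, the AP-1 letters TGAGTCA in 1 (*Cd68*) and 4.46%, and the TATA box letters TATAAA in 0 and 12.4%. The stretches upstream of *C1qb* (chr4:136886201-136886450) and of *C1qc* (chr4:136893066-136893164) are shown on the minus strand with GAGGAA, or its reverse complement TTCCTC, in capitals. The second is the part of the RefSeq window that lies outside the GENCODE gene.
C1qb: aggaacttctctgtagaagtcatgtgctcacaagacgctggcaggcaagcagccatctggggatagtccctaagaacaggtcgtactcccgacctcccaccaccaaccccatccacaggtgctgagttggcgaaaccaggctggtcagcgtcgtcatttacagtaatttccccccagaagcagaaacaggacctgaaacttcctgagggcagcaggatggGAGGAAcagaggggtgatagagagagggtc
C1qc: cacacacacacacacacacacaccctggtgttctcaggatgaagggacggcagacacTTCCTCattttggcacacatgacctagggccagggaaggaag
Each stretch holds the motif on 1 strand only, as GAGGAA in *C1qb* and as TTCCTC in *C1qc*. A match of letters is no evidence of binding.

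Values are FPKM, fragments per kilobase of transcript scaled to the size of the library, so that levels can be compared between genes. On this scale the 10 genes were low to moderate in whole kidney. The mean over the 9 libraries was 15.49 FPKM for *C1qc*, 15.38 for *C1qb*, 15.11 for *Tyrobp*, 10.2 for *C1qa*, 6.95 for *Csf1r*, 5.15 for *Cd68*, 4.33 for *Mrc1*, 3.61 for *Csf1*, 3.09 for *Lyve1* and 2.56 for *Cx3cr1*. *Tyrobp* was above *C1qa*, and *C1qa* above *Csf1r*, in 9 of 9 libraries, and *Csf1r* was above *Cd68* in 8. The neighbours *C1qc* and *C1qb* (5 of 9 libraries), *Cd68* and *Mrc1* (6), *Mrc1* and *Csf1* (6) and *Csf1* and *Lyve1* (6) changed places between libraries, as did *C1qb* and *Tyrobp* (7) and *Lyve1* and *Cx3cr1* (7). In bulk tissue, fewer macrophages and less RNA per macrophage cannot be told apart.

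**Figure D1:**
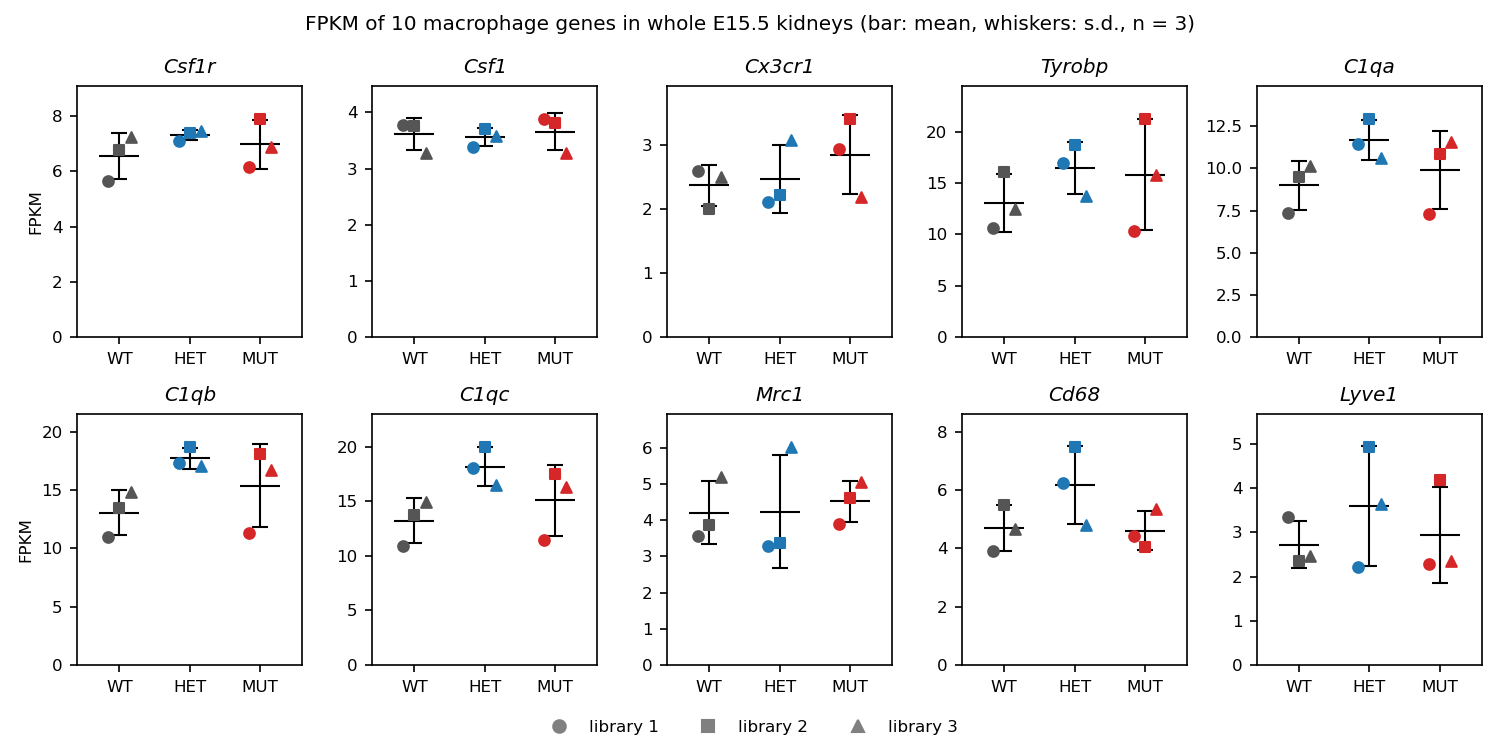
FPKM of the 10 macrophage genes in each of the 9 libraries, by genotype, with the mean as a bar and the s.d. as whiskers (n = 3). The HET libraries of *C1qa*, *C1qb* and *C1qc* all sit above the WT libraries, and the MUT libraries, from 7.29 to 11.6 FPKM for *C1qa*, span both groups.

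The libraries did not differ by genotype alone. *Ntn1* was 24.3 ± 5.75 FPKM in WT, 13.6 ± 2.53 in HET and 12.8 ± 3.22 in MUT (SD, n = 3), and every HET and MUT library was below every WT library, while HET and MUT overlapped. The kidney markers summed to between 293 and 378 FPKM, led by *Cited1* and *Six2* of the nephron progenitors. HET-2 stood apart: markers of hepatocytes summed to 866 FPKM, against at most 62.2 in the other 8 libraries, with *Alb* at 244 and *Afp* at 217. In the same library the erythroid sum was 3475 FPKM against at most 2286, with joint loci of *Hbb* and *Hba* genes highest, and the neutrophil sum, led by *S100a8* and *S100a9*, was 50.6 against at most 7.59. The 4 markers of liver macrophages, of which *Cd5l* (0.912 FPKM) and *Timd4* (0.254) were highest, summed to 1.29 in HET-2 and to at most 0.466 elsewhere. Comparisons with HET are therefore also given without the libraries numbered 2 for the C1q genes, *Tyrobp*, *Cd68*, *Lyve1* and the counts over the 10 genes and over the other macrophage genes. The relative depth of the libraries, read from the spacing of the lowest FPKM, ranged from 0.571 in WT-2 to 1.28 in MUT-1 with WT-1 set to 1.

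The growth factor and its receptor differed little between genotypes. *Csf1r*, which marks the whole lineage and is needed for its survival, was 5.64, 6.78 and 7.24 FPKM in the WT libraries, 7.10, 7.40 and 7.46 in the HET libraries, and 6.16, 7.90 and 6.87 in the MUT libraries (in the order of their numbers, as in all such values). The 3 groups overlapped, and the HET libraries lay closest together. *Csf1* was 3.78, 3.77 and 3.28 FPKM in WT, 3.39, 3.70 and 3.58 in HET, and 3.89, 3.80 and 3.28 in MUT. It was the steadiest of the 10 genes, with a coefficient of variation of 6.47% over the 9 libraries, and 6.60% of the 12915 loci compared had a smaller one. The log2 fold change (here and throughout of FPKM + 1, fitted in limma with a block for the number of the library) of *Csf1r* between MUT and HET was -0.07 (95% interval -0.39 to 0.25, adjusted p = 0.962), and that of *Csf1* was 0.03 (-0.27 to 0.33, adjusted p = 0.980). Changes of *Csf1* outside that interval were not detected, and smaller ones cannot be judged with 3 libraries. Between HET and WT, *Csf1r* had a log2 fold change of 0.15 (95% interval -0.14 to 0.43, adjusted p = 0.994 in limma). HET was higher in 3 of 3 same-numbered pairs. That of *Csf1* was -0.01 (-0.27 to 0.24, adjusted p = 0.998 in limma). The other ligand of the receptor, *Il34*, was below 1 FPKM in all 9 libraries, at 0.542 to 0.979.

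On log2(FPKM + 1), the C1q genes gave the largest differences of the 10, between HET and WT. By the ratio of mean FPKM in the same comparison, *C1qb* (1.36) and *C1qc* (1.38) led, with *Lyve1* (1.32) and *Cd68* (1.32) above *C1qa* (1.30). *C1qa* was 7.38, 9.46 and 10.1 FPKM in WT, 11.4, 12.9 and 10.6 in HET, and 7.29, 10.9 and 11.6 in MUT. *C1qb* was 11.0, 13.4 and 14.8 FPKM in WT, 17.3, 18.7 and 17.1 in HET, and 11.3, 18.1 and 16.7 in MUT. *C1qc* was 10.9, 13.7 and 15.0 FPKM in WT, 18.0, 20.0 and 16.5 in HET, and 11.4, 17.5 and 16.3 in MUT. For all 3 genes each HET library was above each WT library, while MUT-1 was as low as WT-1 and the other MUT libraries were in or near the HET range. The summed FPKM of the 3 genes was 35.3 ± 5.44 in WT, 47.6 ± 3.80 in HET and 40.3 ± 8.97 in MUT (SD, n = 3).

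Between HET and WT the log2 fold change was 0.35 for *C1qa* (SE 0.12), 0.42 for *C1qb* (SE 0.11) and 0.44 for *C1qc* (SE 0.12), which is a fold of 1.27, 1.34 and 1.36. None passed the test: the adjusted p was 0.994 for each in limma with Benjamini-Hochberg adjustment over 10105 loci, although the unadjusted limma p was 0.0205, 0.00432 and 0.00616 and *C1qb* and *C1qc* ranked 16 and 20 of all loci by p. The exact permutation test of 3 libraries against 3 gave p = 0.1 for each, the smallest it can give. HET libraries all above WT libraries were seen for 3 of the 10 genes, these 3, and for 2.57% of all 13056 loci with a mean of at least 1 FPKM, and the opposite for 0 of the 10 and 1.44% of loci. The 3 genes do not count as independent, since they move together. Without the libraries numbered 2, and so without HET-2, the log2 fold changes were 0.32 for *C1qa*, 0.41 for *C1qb* and 0.40 for *C1qc* (adjusted p = 1.00 for each in limma). Without those numbered 1, and so without WT-1, they were 0.24, 0.32 and 0.32 (adjusted p = 0.820 for each). Without the libraries numbered 3, *C1qb* (0.53, adjusted p = 0.0364) and *C1qc* (0.59, adjusted p = 0.00985) passed the threshold in limma, and *C1qa* (0.49, adjusted p = 0.143) did not, with 2 libraries a group and 1 residual degree of freedom, and 1.24% of 10114 loci (125) were called in that fit. WT-3 was the highest WT library and HET-3 the lowest HET library for all 3 genes.

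**Figure D2:**
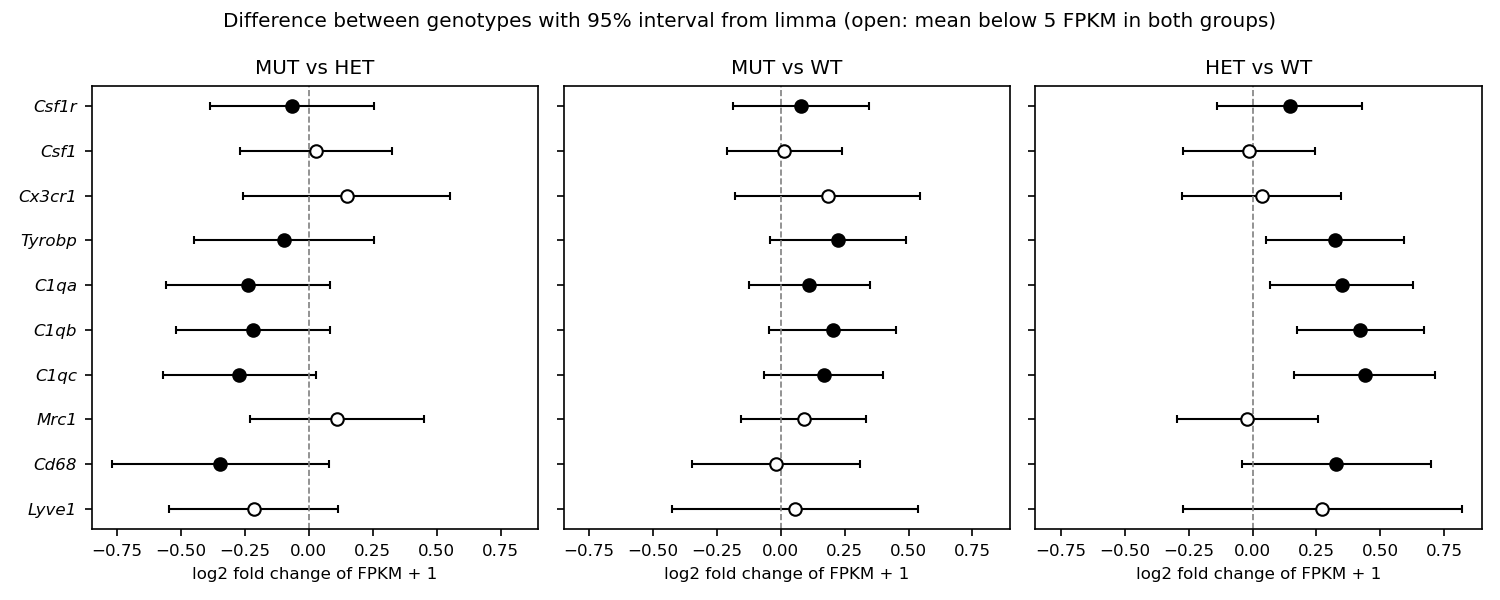
Log2 fold change of FPKM + 1 for each gene in the 3 comparisons of genotypes, with the 95% interval from limma, and open points for genes with a mean below 5 FPKM in both groups. The intervals of *C1qa*, *C1qb*, *C1qc* and *Tyrobp* lie above 0 between HET and WT before adjustment, with the block, and all intervals between MUT and HET and between MUT and WT include 0.

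In the comparison of MUT with HET, the pair that shares the Cre allele, the C1q genes were not distinguishable. The log2 fold change was -0.24 for *C1qa* (SE 0.15), -0.22 for *C1qb* (SE 0.14) and -0.27 for *C1qc* (SE 0.14), with an adjusted p of 0.933 for each in limma, and -0.24, -0.30 and -0.31 without the libraries numbered 2. *C1qb* and *C1qc* were lower in MUT in 3 of 3 same-numbered pairs, but by less than 4% in the pairs of *C1qb* numbered 2 and 3, and most of the difference was in MUT-1, where *C1qc* was 0.633 of its level in HET-1. Without the libraries numbered 1 the log2 fold changes were -0.0618, -0.0411 and -0.0987. MUT and WT also overlapped, with log2 fold changes of 0.11, 0.20 and 0.17 for *C1qa*, *C1qb* and *C1qc* (adjusted p = 0.995 for each).

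Within a library the 3 C1q genes kept nearly fixed proportions. The ratio of *C1qb* to *C1qc* ran from 0.935 in HET-2 to 1.04 in HET-3, a coefficient of variation of 3.39%, and that of *C1qa* to *C1qc* from 0.621 to 0.708 (4.38%), while *C1qc* itself varied by 19.5%. Over the 9 libraries, Pearson's r of log2(FPKM + 1) was 0.986 between *C1qb* and *C1qc* (exact permutation test, adjusted p = 0.00062 over 45 pairs of genes) and Spearman's rho was 0.983 (exact permutation test, adjusted p = 0.00223). Without WT-1 and MUT-1, the libraries farthest from the median, r was 0.948, and after the genotype means were taken out it was 0.980. Of the 45 pairs this was the only one past 0.05 by both measures, and 10 passed by r. *Csf1r* followed *C1qb* with r = 0.903 (exact permutation test, adjusted p = 0.0120; rho = 0.850, adjusted p = 0.0547), but r was 0.640 without WT-1 and MUT-1. The relation of *C1qc* to *Tyrobp* (r = 0.844, exact permutation test, adjusted p = 0.0309; rho = 0.817, adjusted p = 0.0808) went to 0.565 without those libraries.

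The low C1q values of WT-1 and MUT-1 went with a property of the whole library, and the cause was not tested. Loci whose longest GENCODE transcript is up to 1000 nt had a median log2 deviation from the 9-library mean of -0.29 in WT-1 and -0.30 in MUT-1, and of 0.17 in HET-1 and 0.12 in HET-2, while the median of loci over 3000 nt lay between -0.06 and 0.08 in all libraries. The longest transcripts of *Tyrobp* (597 nt), *C1qa* (1040 nt), *C1qb* (1088 nt), *C1qc* (1203 nt) and *Cd68* (1230 nt) are short, and those of *Csf1r* (4701 nt), *Cx3cr1* (4493 nt), *Csf1* (4176 nt) and *Mrc1* (5374 nt) are long. Of the long genes, *Csf1r* was also lowest in WT-1 (5.64 FPKM) and next lowest in MUT-1 (6.16 FPKM). *Cx3cr1*, *Csf1* and *Mrc1* were lowest in other libraries. HET libraries all above WT libraries were seen for 4.21% of the 1568 loci with a longest transcript of up to 1500 nt. The genes whose pattern over the 9 libraries was most like the mean of the 3 C1q genes, by r of log2(FPKM + 1) among 9972 loci, were *Tmem9* (r = 0.956), *Mrpl17* (0.950), *Gabarap* (0.946), *Lgals1* (0.944) and *Trappc5* (0.943), which are widely expressed. In the same order their longest transcripts were 1806, 7300, 1351, 800 and 4411 nt, so not all of them are short. Of the 100 loci most like the C1q mean, 51.0% had a longest transcript of up to 1500 nt, against 11.8% of all. These r are a description, over libraries that share this property.

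**Figure D3:**
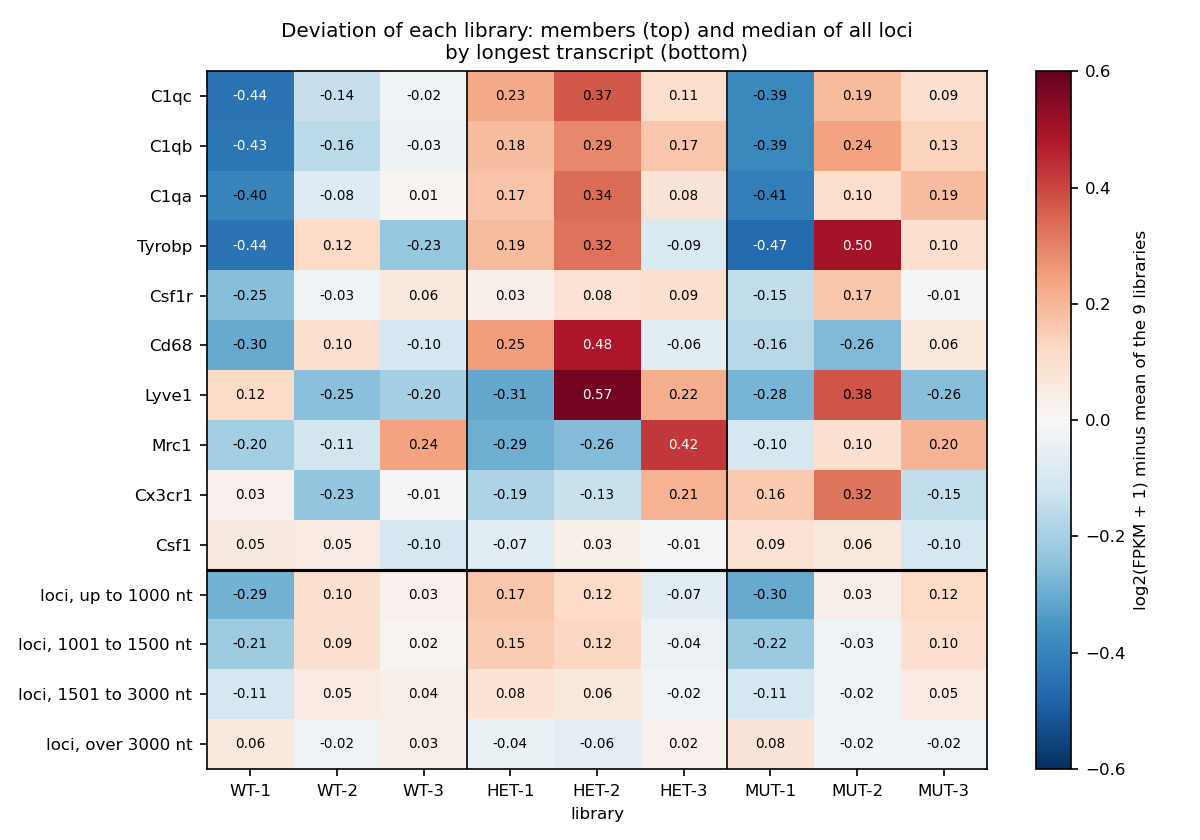
Deviation of log2(FPKM + 1) in each library from the mean of the 9 libraries, for the 10 genes (upper rows) and as the median of all loci in 4 classes of longest transcript (lower rows). WT-1 and MUT-1 are low for the C1q genes and *Tyrobp*, at -0.39 to -0.47, and for the loci of up to 1000 nt, at -0.29 and -0.30.

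With GC content and the length of transcripts corrected library by library, a step added after the data were seen, the difference between HET and WT was smaller. The log2 fold change was 0.22 for *C1qa*, 0.28 for *C1qb* and 0.30 for *C1qc* (adjusted p = 0.999 for each in limma). The corrected log2 level of *C1qb* was 3.75, 3.75 and 4.10 in WT and 4.02, 4.11 and 4.29 in HET, so that WT-3 was above HET-1. The HET and WT libraries then overlapped for all 3 C1q genes, and of the 10 genes *Tyrobp* alone had all HET libraries above all WT libraries, against 3.29% of 12600 loci.

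**Figure D4:**
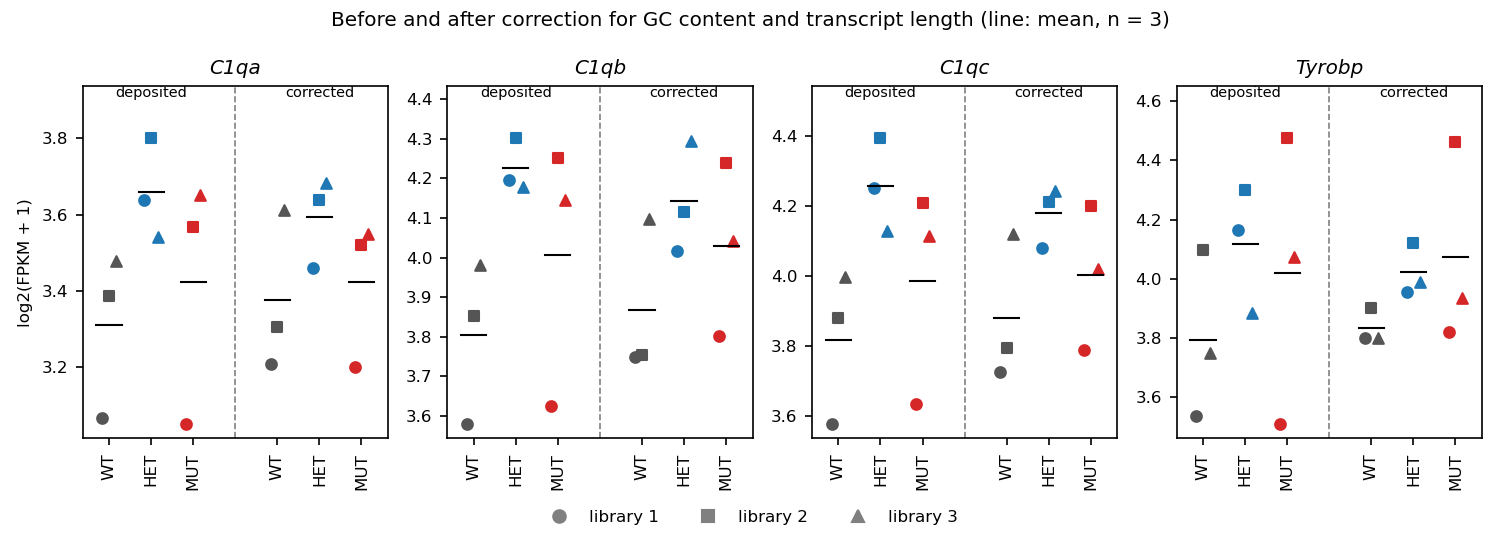
Log2(FPKM + 1) of *C1qa*, *C1qb*, *C1qc* and *Tyrobp* in each library as deposited and after correction for GC content and transcript length, with the mean of each genotype as a line (n = 3). WT-3 lies within the corrected HET range of the C1q genes, and MUT-1 remains the lowest MUT library of each gene.

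*Tyrobp*, the signalling adaptor, was 10.6, 16.1 and 12.4 FPKM in WT, 16.9, 18.7 and 13.7 in HET, and 10.4, 21.3 and 15.8 in MUT. The groups overlapped, and MUT held both the lowest and the highest of the 9 libraries, a range of 2.05-fold. The log2 fold change was 0.32 between HET and WT (SE 0.12, limma unadjusted p = 0.0251, adjusted p = 0.994; 0.38 without the libraries numbered 2) and -0.10 between MUT and HET (SE 0.16, adjusted p = 0.952; -0.23 without the libraries numbered 2). Without the block the unadjusted limma p between HET and WT was 0.0671. Another adaptor, *Fcer1g*, the common gamma chain of Fc receptors, moved with *Tyrobp*. The ratio of *Tyrobp* to *Fcer1g* was 1.08 to 1.36, with a coefficient of variation of 7.52%. *Cd68*, a lysosomal membrane glycoprotein of phagocytes, was 3.92, 5.49 and 4.65 FPKM in WT, 6.23, 7.49 and 4.80 in HET, and 4.41, 4.05 and 5.34 in MUT. HET-1 and HET-2 were the highest libraries, and HET-3 was within the WT range. *Cd68* had a log2 fold change of -0.35 between MUT and HET (SE 0.20, adjusted p = 0.933 in limma; -0.14 without the libraries numbered 2) and of 0.33 between HET and WT (SE 0.16, adjusted p = 0.994; 0.30 without the libraries numbered 2), and in both comparisons it reached the minimum of 5 FPKM only through HET.

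The chemokine receptor and the markers of resident subsets followed other patterns. *Cx3cr1*, the receptor of fractalkine, was 2.59, 2.00 and 2.50 FPKM in WT, 2.10, 2.21 and 3.07 in HET, and 2.94, 3.40 and 2.19 in MUT. All groups overlapped, and its log2 fold change in MUT against HET was 0.15 (SE 0.18, adjusted p = 0.935 in limma, read with a minimum of 1 FPKM). Across libraries it ran against *Cd68* (r = -0.70, exact permutation test, adjusted p = 0.136; rho = -0.72, adjusted p = 0.184), which did not pass. Its ligand *Cx3cl1* was at 3.00 to 4.62 FPKM. *Mrc1*, the mannose receptor, was 3.57, 3.87 and 5.21 FPKM in WT, 3.30, 3.38 and 6.04 in HET, and 3.91, 4.61 and 5.05 in MUT. The library numbered 3 was the highest of each genotype, and the log2 fold change was 0.11 between MUT and HET (SE 0.15, adjusted p = 0.935 in limma). *Lyve1* was 3.34, 2.35 and 2.48 FPKM in WT, 2.23, 4.94 and 3.65 in HET, and 2.28, 4.19 and 2.34 in MUT. It was the most variable of the 10, with a coefficient of variation of 32.1%, and HET-2 and MUT-2 were highest. Its log2 fold change was -0.22 between MUT and HET (SE 0.14, adjusted p = 0.935; -0.22 without the libraries numbered 2) and 0.27 between HET and WT (SE 0.23, adjusted p = 0.991), and the latter was -0.0044 without the libraries numbered 2.

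As a group the 10 genes gave no call in any comparison. The share of loci called by limma was 0.0% of 10081 between MUT and HET, 0.0% of 10096 between MUT and WT, 0.0% of 10105 between HET and WT, and 0.0% of 10164 in the F test over 3 genotypes, while 494, 201, 233 and 213 loci had an unadjusted p under 0.05. Of the 10 genes, 0, 0 and 4 had such a p in the 3 comparisons of 2 genotypes, the 4 being the C1q genes and *Tyrobp*, 5 with *Cd68* at a minimum of 1 FPKM, and 3, the C1q genes, without the block. Between HET and WT, 2.34% of 13056 loci had such a p at the minimum of 1 FPKM, and 1.07% of 10105 without the block. Of the 10 genes, 6, 5 and 6 reached the minimum of 5 FPKM in the 3 comparisons, and all 10 were tested with a minimum of 1 FPKM. Between MUT and HET 3 were higher and 7 lower, with a median log2 fold change of -0.16 against -0.01 for all loci. Between MUT and WT 9 were higher and 1 lower (median 0.10 against -0.0049 for all loci), and between HET and WT 8 were higher and 2 lower (median 0.30 against 0.0016). Without the libraries numbered 2, 1 was higher and 9 lower between MUT and HET (median -0.18), 8 higher and 2 lower between MUT and WT (0.0553), and 8 higher and 2 lower between HET and WT (0.23). These comparisons share libraries, so their signs are not separate evidence. MUT libraries were all above or all below HET libraries for 0 of the 10 genes, against 4.78% and 4.9% of 13041 loci, and all above or all below WT libraries for 0, against 1.78% and 1.92% of 12984. With the libraries numbered 2 left out, so 2 libraries against 2, HET was all above WT for 5 of the 10 (10.2% of loci) and all below for 0 (9.36%). MUT was then all below HET for 3 (10.5%) and all above for 0 (11.3%). It was all below WT for 1 (13.2%) and all above for 0 (9.46%). WT-1 and MUT-1 were each among the lowest 2 libraries for 6 of the 10 genes, and HET-2 and MUT-2 among the highest 2 for 6. The F test over the 3 genotypes gave its smallest unadjusted p for *C1qc* (0.0183) and *C1qb* (0.0199), both with an adjusted p of 0.973 in limma.

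Other macrophage genes from a list of 34 gave 0 calls by limma as well. At a minimum of 1 FPKM, 1 of 25, 1 of 22 and 3 of 25 had an unadjusted limma p under 0.05. These counts are for MUT against HET, MUT against WT, and HET against WT. The shares of all loci at that minimum were 3.93%, 2.63% and 2.34%. Of the 25 with a mean of at least 1 FPKM between HET and WT, 17 were higher and 8 lower (median log2 fold change 0.15), and 8 had all HET libraries above all WT libraries: *Cd53*, *Coro1a*, *Ctss*, *Fcgr3*, *Lyz2*, *Ms4a7*, *Spi1* and *Trem2*, against 2.57% of all loci. Without the libraries numbered 2, 16 of 24 were higher and 8 lower (median 0.11), and 10 had all HET libraries above all WT libraries, against 10.2% of all loci in that comparison of 2 libraries with 2. After the correction for GC content and length this held for 6 of the 25, *Coro1a*, *Ctss*, *Fcgr3*, *Lyz2*, *Ms4a7* and *Trem2*, against 3.29% of 12600 loci. Between MUT and WT the corrected MUT libraries were all above the WT libraries for 5 of 22, *Adgre1*, *Ctss*, *Lyz2*, *Ms4a7* and *Ptprc*, against 3.30% of 12525 loci, and for 0 of 22 before the correction. *Lyz2*, which encodes lysozyme and is also made by neutrophils, was 9.70, 11.9 and 13.6 FPKM in WT, 16.1, 20.1 and 14.8 in HET, and 11.0, 22.0 and 14.7 in MUT (log2 fold change between HET and WT 0.50, SE 0.14, adjusted p = 0.991 in limma with a minimum of 1 FPKM, as for all list genes). *Spi1*, which encodes PU.1, was 1.71 to 2.13 FPKM in WT, 2.32 to 2.44 in HET and 2.10 to 2.56 in MUT. The most abundant of the list, *Lgmn* (mean 44.5 FPKM, a lysosomal protease), had a log2 fold change of -0.0037 between HET and WT (adjusted p = 0.998 in limma). Its r with the C1q mean over the 9 libraries was 0.535, rank 2330 of 9972 loci, and the part of *Lgmn* made by cells other than macrophages was not tested. Between MUT and HET 13 of 25 were higher and 12 lower, with *Laptm5* all above and *Trem2* all below (4.78% and 4.9% of all loci), and 8 of 24 were higher and 16 lower without the libraries numbered 2, and between MUT and WT 19 of 22 were higher.

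Around the receptors and complement, 0 genes were called by limma, and 1 had an unadjusted p under 0.05, between HET and WT, where 2.34% of 13056 loci had such a p. Of a list of CSF1 pathway genes and related myeloid genes, not all of that pathway, 6 of 10 were tested. Of these, 4 were higher and 2 lower between HET and WT, and 3 and 3 between MUT and HET. The most abundant were *Grb2* (37.5 FPKM) and *Csf2ra* (9.59 FPKM), which encodes a receptor chain for another growth factor, GM-CSF. Of the DAP12 list 4 of 9 were tested between HET and WT, 3 higher and 1 lower, with *Fcer1g* (12.7 FPKM) and *Syk* (5.99 FPKM) the most abundant. Of the other complement genes 13 of 16 were tested, 7 higher and 6 lower between HET and WT and 5 and 8 between MUT and HET. They include *C1qbp* (126 FPKM), a mitochondrial protein named for binding C1q, whose log2 fold change between HET and WT was 0.17 (SE 0.13, adjusted p = 0.991 in limma). Of 11 chemokine and receptor genes 5 were tested between MUT and HET, 4 higher and 1 lower, with *Cxcl12* (85.7 FPKM) and *Cxcr4* (26.3 FPKM) the most abundant.

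Markers of other cells that make some of these transcripts were also read. The lymphatic endothelial list, which bears on *Lyve1*, summed to 43.4 to 49.3 FPKM over the 9 libraries, with *Pdpn* and *Vegfc* highest, and in HET-2, where *Lyve1* was highest, to 46.6. The endothelial list, led by *Egfl7* and *Pecam1*, summed to 189 to 225 FPKM. The neutrophil list, which bears on *Lyz2* and *Tyrobp*, summed to 4.09 to 4.60 FPKM in WT, 5.08 to 50.6 in HET and 4.64 to 7.59 in MUT. The megakaryocyte list summed to 12.9 to 17.6 FPKM, mostly from the joint locus of *Gp1bb* and *Sept5*, with *Itga2b* at about 1. Mast cell (*Cpa3* and *Cma1* highest), lymphocyte (*Cd79a* and *Nkg7*) and adrenal (*Cyp11a1* and *Star*) lists were near 0, at no more than 2.50, 1.03 and 1.87 FPKM in sum. Of these lists and those of kidney, hepatocyte, erythroid and liver macrophage genes, 0 genes were called by limma, and the part of other cells in the values of the 10 genes was not tested. The liver macrophage markers summed to 0.172 to 1.29 FPKM, highest in HET-2, and these sums do not bound what such cells add to the 10 genes.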

How the data were processed

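Polyadenylated RNA of 9 whole kidneys was sequenced from stranded libraries. The authors aligned reads to mm10 with STAR, built transcript models (cufflinks, cuffmerge) and deposited FPKM from CuffDiff; versions are not given in the sources used here. The FPKM were used as deposited, and 355 of 24138 loci have joined names. Read numbers are unknown, so precision rests on 3 libraries per genotype.

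Loci averaging 5 FPKM or more in 1 of the groups entered a comparison on log2(FPKM + 1), which understates changes of low genes, with limma 3.58.1 (R 4.3.3, lmFit, eBayes with a trend), two-sided, blocked on replicate number (the study's P values for MUT against HET are those of a paired test; the block was extended here to the other comparisons), and Benjamini-Hochberg adjustment at 0.05. Genes below 5 FPKM were read from the same fit with a minimum of 1 FPKM. Permutation tests were exact and two-sided (smallest p 0.1). Gene models and GC content came from GENCODE M21, with GC content for 95.87% of loci. Corrections used a spline of 5 degrees of freedom per library. Other steps ran in Python 3.11.15, and the fits were tested on simulated data.

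The 10 genes, *Ntn1*, the 2 most abundant genes of each marker list and the 5 genes most like the C1q mean were to be named; macrophage genes whose groups did not overlap, *Il34* and *Cx3cl1* were added after their values were seen, and 2 genes that the rule names are not reported here. The genes and lists were chosen with earlier results of these data known.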

Additional observations from a re-analysis of the deposited data

How the results depend on the processing

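Without the replicate block, 0 loci were called in each comparison, as with it, and 636, 65 and 108 loci had an unadjusted p under 0.05 between MUT and HET, MUT and WT, and HET and WT, against 494, 201 and 233. Same-numbered libraries correlated at -0.13, 0.09 and -0.02 on average, and not every pair deviated together, so a pairing by number is not shown by these data; the fits keep the block because the study's own comparison pairs the libraries. Without it, *Tyrobp* between HET and WT no longer had an unadjusted p under 0.05 (0.0671 against 0.0251). The counts of 0 held under every alternative that kept all libraries. With the libraries of 1 number left out, which leaves 1 residual degree of freedom in each comparison of 2 genotypes, 30 to 148, 1 to 168 and 1 to 125 loci were called, and 0 to 16 in the F test. Between HET and WT, 0 to 2 of the genes were called, and *C1qb* and *C1qc* were those 2, without the libraries numbered 3.

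Signs changed in genes with small differences. With libraries left out, the log2 fold change of MUT against HET ran from -0.0338 to 0.0918 for *Csf1*, -0.24 to 0.18 for *Tyrobp*, -0.00432 to 0.40 for *Cx3cr1* and -0.0137 to 0.27 for *Mrc1*. Between MUT and WT it ran from -0.000138 to 0.34 for *Cx3cr1*, -0.11 to 0.15 for *Cd68* and -0.23 to 0.29 for *Lyve1*, and between HET and WT from -0.0701 to 0.0399 for *Csf1*, -0.12 to 0.0463 for *Mrc1*, -0.00441 to 0.62 for *Lyve1* and -0.0574 to 0.16 for *Cx3cr1*. Under quantile normalization, it was 0.017 for *Csf1* and 0.0025 for *Mrc1* between HET and WT. With the GC correction, it was -0.0056 for *Csf1* between MUT and WT and 0.037 for *Mrc1* between HET and WT. With GC content and length corrected, it was 0.050 for *Tyrobp* between MUT and HET, -0.016 for *Csf1* between MUT and WT and 0.081 for *Mrc1* between HET and WT. The cause was not tested. No direction of the C1q genes between HET and WT changed under any alternative run, and their log2 fold changes lay between 0.22 and 0.59. Depth is unknown, so how far counting error limits genes at 2 to 5 FPKM cannot be given.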
